A study of Homo sapiens with 16 samples.

Results

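FLNA, TAGLN, MYL9, ACTA2, ANKRD1, THBS1, TGM2, AMOTL2 and MYADM are 9 genes of the actin cytoskeleton and of the transcriptional response to mechanical tension, and their RNA was followed in stem-cell-derived islet cultures given 1 of 7 compounds or the solvent DMSO. They were taken by symbol from the 62754 genes counted, each matched 1 row, and all 9 were among the 24515 genes with enough reads to test. They were chosen with earlier results of these data known. By edgeR's test 2 of the 9 rose with colchicine, where 0.126% of tested genes were called higher. With rimonabant 3 rose, where 5.03% were called higher, and none was called with the other 5 compounds. FLNA, the actin crosslinker filamin A, rose with colchicine (log2 change 0.53, SE 0.10) and with rimonabant (0.52, SE 0.10), n = 2 libraries a group. MYADM, a membrane protein of lipid rafts, rose with both as well, by 0.63 (SE 0.08) and 0.32 (SE 0.08) on the log2 scale. TGM2, the protein crosslinker transglutaminase 2, rose with rimonabant by 1.27 (SE 0.18). ANKRD1, a widely used target of the YAP coactivator, passed the test with none of the compounds. None of the 5 passed the test when transcript GC content was modelled in each library, where MYADM with colchicine stood at 0.57 and TGM2 with rimonabant at 1.05, and FLNA and MYADM with rimonabant at 0.05 and 0.12. None of the 5 passed when either DMSO library was left out, although all 5 kept their direction, with MYADM between 0.57 and 0.73 with colchicine and TGM2 between 1.09 and 1.48 with rimonabant over all single libraries left out. The 2 with colchicine also missed the threshold without either Colchicine library, and the 3 with rimonabant without Rimonabant 2.

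YAP and its relative TAZ are coactivators that enter the nucleus when cells spread or pull on their substrate, and there they act through the TEAD factors. The Hippo kinases LATS1 and LATS2 phosphorylate YAP and hold it in the cytoplasm. A second route from actin to transcription runs through SRF, a factor that binds the CArG box, and its coactivators MRTFA and MRTFB, which monomeric actin holds back until it is drawn into filaments. In the developing pancreas YAP is active in progenitors and is switched off as endocrine cells form, and the actin cytoskeleton is known to influence endocrine commitment.

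HUES8, the parent of all cultures, is a human embryonic line in wide use and is labelled wild type here, and total RNA of whole cultures was sequenced. The groups were colchicine (10 nM, a tubulin binder), rimonabant (125 nM, which blocks the cannabinoid receptor CNR1), rottlerin (1.23 uM, used to inhibit protein kinases), Ly-294002 (120 nM, which inhibits PI3 kinase), moxifloxacin (1.1 uM, an antibiotic), epirizole (2.5 uM, an anti-inflammatory drug), vardenafil (125 nM, which inhibits phosphodiesterase 5) and DMSO. Each group had 2 libraries, all in batch 1, with the compound added in stage 5 and kept on until day 7 of stage 6. All 16 come from the same cell line, and nothing in the labels says that the 2 libraries of a group were separate differentiations, so the spread behind each p-value may be technical. The compounds had been picked with a computational tool, DBSOMA. Their doses differ and their structures are unrelated, so no structure was set against response.

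Library totals ran from 23294377 to 30701868 reads. The islet label was checked against 12 endocrine markers. Marker levels and marker sums in CPM are reads scaled by the library total alone, without TMM normalisation. The secretory granule gene CHGA lay between 31.6 and 315 CPM and INS between 0.643 and 6.37 CPM. IAPP had a median of 0 CPM with a highest value of 0.0354 CPM. The 7 epithelium markers summed to between 2860 and 3750 CPM, the 13 mesenchyme markers to between 1080 and 3120 CPM, and the endocrine markers to between 52.2 and 478 CPM. In bulk RNA, fewer cells of a type and less RNA per cell cannot be told apart. The Rimonabant 2 library stood apart in base composition. Relative to the mean of all libraries, its genes of high transcript GC content lay 0.71 log2 units above its genes of low GC content, by medians. The Rimonabant 1 library had 0.14 on this measure, the Colchicine libraries 0.11 and 0.07, the Rottlerin libraries 0.17 and 0.02, and the DMSO libraries −0.30 and −0.36, the lowest of the 16.

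RefSeq (GRCh38.p14) gave promoter windows, from 250 bases before to 50 after a transcript start, for 6 of the 9 genes, 10 windows in all, while TAGLN, MYL9 and TGM2 had no entry. The windows below are shown because they hold the letters of the 2 routes named above. Capitals mark either the core of the TEAD motif (GGAATG, or its reverse complement CATTCC) or a CArG box, the element that SRF binds, marked only where all 10 of its bases match the consensus, so that near matches stay in lower case. The sequences run 5′ to 3′ on the strand of the gene, up to the base before the start. ANKRD1 held 2 TEAD cores, at −220 to −215 and at −128 to −123 from its start (chr10:90921088-90921337, minus strand).
ANKRD1: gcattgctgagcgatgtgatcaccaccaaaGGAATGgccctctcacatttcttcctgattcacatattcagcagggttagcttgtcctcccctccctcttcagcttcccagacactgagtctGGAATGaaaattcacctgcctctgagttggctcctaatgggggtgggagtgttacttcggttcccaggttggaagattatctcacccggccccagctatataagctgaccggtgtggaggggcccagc
THBS1 held a TEAD core at −46 to −41 (chr15:39580829-39581078, plus strand).
THBS1: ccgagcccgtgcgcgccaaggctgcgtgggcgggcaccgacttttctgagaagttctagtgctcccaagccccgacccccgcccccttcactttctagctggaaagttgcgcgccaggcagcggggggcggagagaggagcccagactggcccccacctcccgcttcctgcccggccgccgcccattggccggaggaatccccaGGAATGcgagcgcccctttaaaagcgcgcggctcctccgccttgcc
AMOTL2 held a TEAD core at −69 to −64 of the second of its 2 starts (chr3:134374448-134374697, minus strand).
AMOTL2: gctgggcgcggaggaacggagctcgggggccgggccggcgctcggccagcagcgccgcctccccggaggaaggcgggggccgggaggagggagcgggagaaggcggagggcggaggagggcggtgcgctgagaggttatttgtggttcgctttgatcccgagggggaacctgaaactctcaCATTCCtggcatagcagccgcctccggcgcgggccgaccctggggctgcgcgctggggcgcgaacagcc
ACTA2 held a TEAD core at −183 to −178 of the second of its 2 starts (chr10:88952774-88953023, minus strand).
ACTA2: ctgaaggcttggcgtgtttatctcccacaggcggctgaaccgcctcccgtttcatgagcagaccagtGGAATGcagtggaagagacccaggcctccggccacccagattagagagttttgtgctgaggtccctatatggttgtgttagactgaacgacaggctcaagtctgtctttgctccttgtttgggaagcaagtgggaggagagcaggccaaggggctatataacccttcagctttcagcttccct
FLNA held a CArG box at −94 to −85 and no TEAD core (chrX:154374635-154374884, minus strand).
FLNA: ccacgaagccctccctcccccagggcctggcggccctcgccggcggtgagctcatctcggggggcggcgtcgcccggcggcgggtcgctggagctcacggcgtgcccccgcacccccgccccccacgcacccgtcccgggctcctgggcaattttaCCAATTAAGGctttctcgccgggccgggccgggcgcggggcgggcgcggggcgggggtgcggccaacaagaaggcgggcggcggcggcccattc
MYADM held a CArG box at 29 to 38 after the third of its 3 starts, within the stretch printed here (chr19:53869409-53869438, plus strand), and a TEAD core across that start.
MYADM: gactcgaagcCCTTATAAGGcgcggagaca

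Searched on both strands, a TEAD core was in 5 of the 10 windows, against 14% of 35116 RefSeq promoter windows, and a CArG box in 2 of the 10, against 1.29%. Counted by gene, with a match in at least 1 window, a TEAD core was in 5 of 6 and in 16.7% of 27305 RefSeq genes, and a CArG box in 2 of 6 and in 1.6%. The TEAD cores and CArG boxes had 0 overlaps. A match describes these letters only, and gene counts do not tell which start was used.

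**Figure D1:**
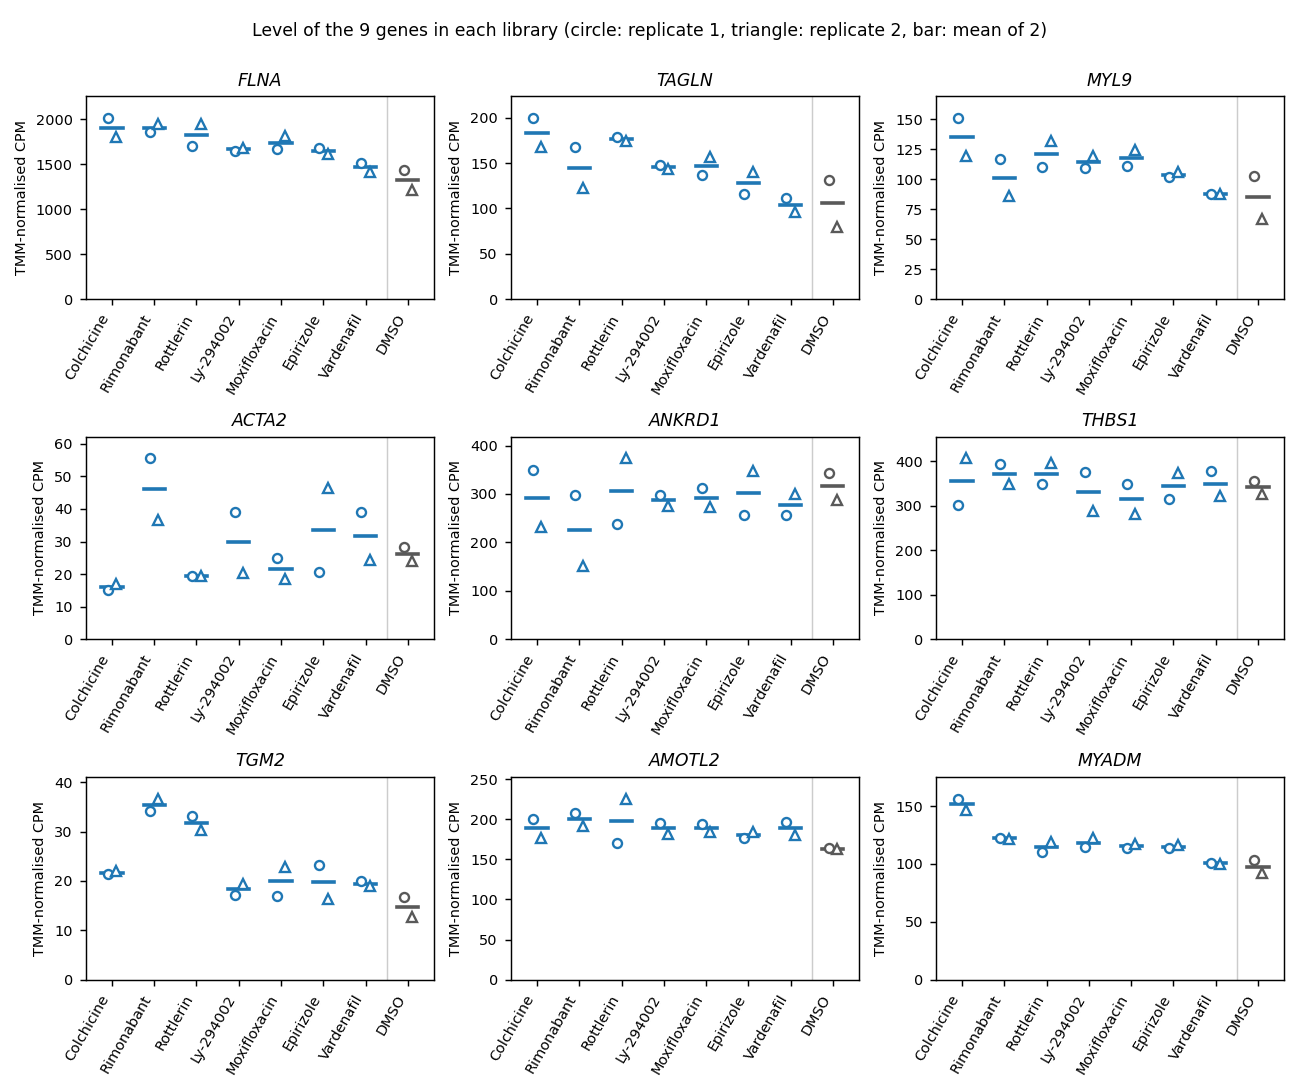
Level of each of the 9 genes (TMM-normalised CPM, linear axis from 0) in every library, with compounds left of DMSO. Circles and triangles are replicates 1 and 2 and the bar is their mean. FLNA, TGM2 and MYADM lie higher with colchicine and rimonabant than with DMSO, while for ANKRD1 and THBS1 every compound group overlaps the DMSO libraries.

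FLNA (ENSG00000196924, X:154348524-154374638, GRCh38 and GENCODE 29, as for all genes here) encodes filamin A, which ties actin filaments into networks and anchors them to integrins, and its window above holds a CArG box. It was the most abundant of the 9 per length, with a median of 198 CPM per kilobase of its principal transcript. Unlike the marker levels above, CPM of the 9 genes are read counts scaled to a common library size by the TMM method. FLNA stood at 2015 and 1805 CPM in the Colchicine libraries, 1858 and 1951 CPM with rimonabant, 1699 and 1948 CPM with rottlerin, and 1434 and 1219 CPM in the DMSO libraries. These 6 compound libraries lay above both DMSO libraries. FLNA stood at 1648 and 1683 CPM with Ly-294002, 1674 and 1811 CPM with moxifloxacin, 1683 and 1620 CPM with epirizole, and 1515 and 1415 CPM with vardenafil. Vardenafil 2 alone lay within the DMSO range, so that 13 of the 14 compound libraries were above the higher DMSO library. Ordered by mean, the groups ran colchicine (1910 ± 148 CPM, SD, n = 2), rimonabant (1905 ± 65.8 CPM), rottlerin, moxifloxacin, Ly-294002, epirizole, vardenafil (1465 ± 71.3 CPM) and DMSO (1326 ± 152 CPM). The ranges of neighbours in this order overlapped except between epirizole and vardenafil. By edgeR's quasi-likelihood test with Benjamini-Hochberg adjustment, the change was 0.53 (SE 0.10, adjusted p = 0.0468) with colchicine and 0.52 (SE 0.10, adjusted p = 0.0125) with rimonabant. With rottlerin it was 0.46 (SE 0.10) and missed the threshold, with an edgeR adjusted p of 0.0691. The DESeq2 test called it (0.47, adjusted p = 0.00486). With transcript GC content modelled it was 0.21 (edgeR adjusted p = 0.568). With 1 of the 4 libraries left out, the edgeR adjusted p of FLNA with colchicine ran from 0.0851 to 0.477.

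TAGLN (ENSG00000149591, 11:117199321-117204782) encodes transgelin, an actin-binding protein of smooth muscle and a classic SRF target. MYL9 (ENSG00000101335, 20:36541484-36551447) encodes the regulatory light chain of non-muscle and smooth muscle myosin. TAGLN stood at 199.7 and 167.4 CPM in the Colchicine libraries, 167.4 and 122.9 CPM with rimonabant, 179.1 and 174.5 CPM with rottlerin, and 131.7 and 79.81 CPM with DMSO. The Colchicine and Rottlerin libraries lay above both DMSO libraries, and the Rimonabant libraries overlapped them. MYL9 stood at 151.1 and 119.8 CPM with colchicine, 116.9 and 86.04 CPM with rimonabant, 110.5 and 132.3 CPM with rottlerin, and 103.1 and 66.96 CPM with DMSO. Its pattern was that of TAGLN, again with rimonabant overlapping DMSO. With the other 4 compounds TAGLN lay between 95.88 and 157 CPM and MYL9 between 87.45 and 124.7 CPM. Neither gene passed edgeR's test with any compound. The largest differences by edgeR were those with colchicine, 0.80 for TAGLN (SE 0.21, adjusted p = 0.1) and 0.67 for MYL9 (SE 0.19, adjusted p = 0.113). The DESeq2 test called TAGLN with colchicine (0.81, adjusted p = 0.00535) and with rottlerin (0.75, adjusted p = 0.0127). It called MYL9 with colchicine (0.68, adjusted p = 0.0164). Their DMSO libraries differed by 1.65-fold for TAGLN and 1.54-fold for MYL9, wider than any compound pair of TAGLN or MYL9.

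ACTA2 (ENSG00000107796, 10:88935074-88991339) encodes smooth muscle alpha-actin, the marker of myofibroblasts and smooth muscle. It varied most of the 9, with a 3.70-fold span over the 16 libraries. ACTA2 stood at 55.54 and 36.55 CPM in the Rimonabant libraries, 15.01 and 17.12 CPM in the Colchicine libraries, and 28.42 and 23.94 CPM with DMSO. Rimonabant lay above and colchicine below both DMSO libraries. ACTA2 stood at 19.5 and 19.38 CPM with rottlerin, 39.11 and 20.36 CPM with Ly-294002, 25.06 and 18.39 CPM with moxifloxacin, and 38.98 and 24.22 CPM with vardenafil. The 2 libraries of a group differed by up to 2.246-fold (Epirizole, 20.7 and 46.5 CPM), and neither difference from DMSO passed the test. The log2 difference was 0.81 with rimonabant (SE 0.42, adjusted p = 0.272) and −0.70 with colchicine (SE 0.43, adjusted p = 0.442).

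MYADM (ENSG00000179820, 19:53866223-53876437) encodes a membrane protein of cholesterol-rich domains that is known to help bring the small GTPase Rac1 to the plasma membrane. MYADM stood at 156.5 and 146.3 CPM with colchicine, 122.7 and 121.5 CPM with rimonabant, and 103.3 and 92.17 CPM with DMSO. The Colchicine libraries were the highest of the 16 and lay apart from all others. MYADM stood at 110.1 and 119 CPM with rottlerin, 114.4 and 122.5 CPM with Ly-294002, 113.6 and 117.1 CPM with moxifloxacin, 113.8 and 116.3 CPM with epirizole, and 101.1 and 100.2 CPM with vardenafil. Both Vardenafil libraries lay within the DMSO range, and these other 8 lay above it. The rise with colchicine was 0.63 (SE 0.08, adjusted p = 0.0125), the third smallest p of all tested genes in that comparison. The rise with rimonabant was 0.32 (SE 0.08, adjusted p = 0.0327). MYADM was also the most reproducible of the 9, with a pooled SD within groups of 0.06 log2 units, where the median tested gene had 0.27. With 1 of the 4 libraries left out, its edgeR adjusted p with colchicine ran from 0.0509 to 0.396.

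TGM2 (ENSG00000198959, 20:38127387-38166578) encodes transglutaminase 2, which crosslinks proteins of the cell and of the matrix and binds integrins and fibronectin. It was the least abundant per length, with a median of 4.08 CPM per kilobase. TGM2 stood at 34.09 and 36.68 CPM with rimonabant, 33.25 and 30.34 CPM with rottlerin, 21.46 and 21.91 CPM with colchicine, and 16.7 and 12.7 CPM with DMSO. Rimonabant and rottlerin were the 4 highest libraries of the 16, and their ranges did not overlap. TGM2 stood at 17.21 and 19.34 CPM with Ly-294002, 16.97 and 22.91 CPM with moxifloxacin, 23.22 and 16.32 CPM with epirizole, and 19.89 and 18.9 CPM with vardenafil. Epirizole 2 alone lay within the DMSO range, and 13 of the 14 compound libraries exceeded the higher DMSO library. The rise with rimonabant was 1.27 (SE 0.18, adjusted p = 0.0120, 35.39 ± 1.83 CPM against 14.70 ± 2.83 CPM with DMSO, SD, n = 2 each). Its p ranked 6 of all tested genes, and without DMSO 2 the edgeR adjusted p was 0.159. The difference with rottlerin was 1.11 (SE 0.18) and missed the threshold, with an adjusted p of 0.0591.

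AMOTL2 (ENSG00000114019, 3:134355874-134375479) encodes an angiomotin-like junction protein that binds YAP and is itself a YAP target. AMOTL2 stood at 200.8 and 177.2 CPM with colchicine, 208.4 and 192.2 CPM with rimonabant, 171 and 225.8 CPM with rottlerin, and 163.7 and 163.2 CPM with DMSO. With the other 4 compounds it lay between 176.3 and 196.9 CPM. All 14 compound libraries thus lay above both DMSO libraries, as they did for 3.54% of tested genes. Among the 9 genes 0 lay below both DMSO libraries in all 14, where 3.59% of tested genes did. No comparison passed the test for AMOTL2, the differences running from 0.14 with epirizole to 0.29 with rimonabant (SE 0.11 each).

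ANKRD1 (ENSG00000148677, 10:90912096-90921276) encodes a cardiac ankyrin repeat protein that serves as a standard readout of YAP. THBS1 (ENSG00000137801, 15:39581079-39599466) encodes thrombospondin 1, a matrix protein that can activate latent TGF-beta. ANKRD1 stood at 349.5 and 232.3 CPM with colchicine, 298.7 and 150.8 CPM with rimonabant, and 343.8 and 287.7 CPM with DMSO. Colchicine overlapped DMSO, and the second Rimonabant library was the lowest of the 16. With the other 5 compounds ANKRD1 lay between 238.3 and 373.5 CPM. In each of the 7 comparisons the difference was below 0, from −0.49 with rimonabant (SE 0.34, adjusted p = 0.427) to −0.05 with rottlerin. THBS1 stood at 302.4 and 406.2 CPM with colchicine, 393 and 348.6 CPM with rimonabant, and 356.4 and 326.1 CPM with DMSO. Its differences ran from −0.11 with moxifloxacin to 0.12 with rimonabant and rottlerin, with an SE of 0.17. Every compound group overlapped the DMSO libraries for both genes.

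The strand setting of the counting is not given in the sources used here, and 8 of the 9 genes overlap an annotated neighbour, 7 of them on the opposite strand. ANKRD1 alone has none. FLNA and MYADM overlap antisense transcripts, TAGLN overlaps PCSK7, TGM2 overlaps RPRD1B, and ACTA2 overlaps FAS and ACTA2-AS1. Overlap was judged by whole gene spans, introns included. Whether reads of such partners were counted for these genes was not tested.

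**Figure D2:**
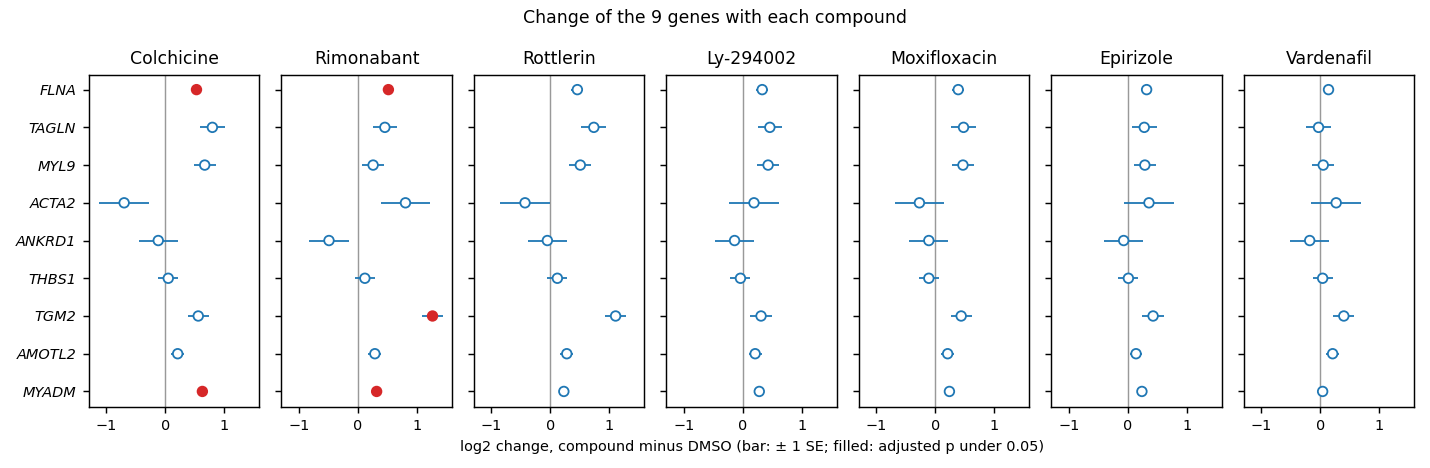
Log2 change (compound minus DMSO, horizontal axis) of the 9 genes with each compound; bars are ± 1 SE and filled points have an adjusted p under 0.05. The 5 filled points are FLNA and MYADM with colchicine and with rimonabant, and TGM2 with rimonabant.

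The counts that follow are descriptions, since the 9 genes were chosen with earlier results of these data known. Set against all genes, the counts with colchicine were 2 of 9 genes higher and 0 lower, where 0.126% of tested genes were called higher and 0.0693% lower. With rimonabant 3 of 9 were higher and 0 lower, where 5.03% were called higher and 2.77% lower. None of the 9 was called with rottlerin, for which 0.00816% of tested genes were called higher and 0% lower. Nor was any called with Ly-294002, moxifloxacin, epirizole or vardenafil, for each of which 0% of tested genes were called in either direction. At an unadjusted p under 0.05 by edgeR, the 9 genes gave 6 with rottlerin (14.8% of tested genes), 3 with Ly-294002 (4.69%), 5 with moxifloxacin (11.9%), 3 with epirizole (5.26%) and 1 with vardenafil (5.22%). The same count was 5 with colchicine (17.5%) and 4 with rimonabant (24.8%). DESeq2 called 3 of the 9 with rottlerin (2.77% of tested genes) and 0 with each of the other 4.

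Both compound libraries lay above both DMSO libraries for 6 of 9 genes with colchicine (24.5% of tested genes), 5 with rimonabant (26.8%), 6 with rottlerin (23.6%), 6 with Ly-294002 (19.5%), 6 with moxifloxacin (23.2%), 3 with epirizole (19%) and 2 with vardenafil (19.4%). Both lay below for 1 gene, ACTA2, with colchicine (25.8%) and with rottlerin (24.4%), and for 0 of the 9 with rimonabant (26.4%), Ly-294002 (19.5%), moxifloxacin (24.4%), epirizole (19%) and vardenafil (20%). The median log2 difference of the 9 genes was 0.53 with colchicine, 0.32 with rimonabant, 0.28 with rottlerin, 0.28 with Ly-294002, 0.24 with moxifloxacin, 0.28 with epirizole and 0.05 with vardenafil. The medians of all tested genes lay between −0.01 and 0.00. These 7 comparisons share the 2 DMSO libraries, and DMSO 2 was the lowest library of the 16 for 6 of the 9 genes (10.3% of tested genes). Colchicine 1 was the highest for 4 of the 9 (6.24%). A joint test of the 7 compounds called 0 of the 9 genes (0.00408% of tested genes), with TGM2 (adjusted p = 0.121), MYADM (0.122) and FLNA (0.151) nearest to the threshold by edgeR. At an unadjusted p under 0.05 the joint test also had TAGLN, which made 4 genes, where 12.9% of tested genes passed.

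Whether rimonabant and colchicine differed from each other was tested directly, a comparison chosen after the values were seen. None of the 9 genes passed by edgeR, where 0.00816% of tested genes were lower with rimonabant and 0% higher. ACTA2 averaged 46.04 ± 13.4 CPM with rimonabant and 16.06 ± 1.5 CPM with colchicine, a log2 difference of 1.52 (SE 0.43, adjusted p = 0.351). TGM2 differed by 0.71 (SE 0.18) and MYADM by −0.31 (SE 0.08), each with an adjusted p of 0.292. At an unadjusted p under 0.05 these 3 passed, where 10.5% of tested genes did. The log2 difference of FLNA was 0.00 (SE 0.10).

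**Figure D3:**
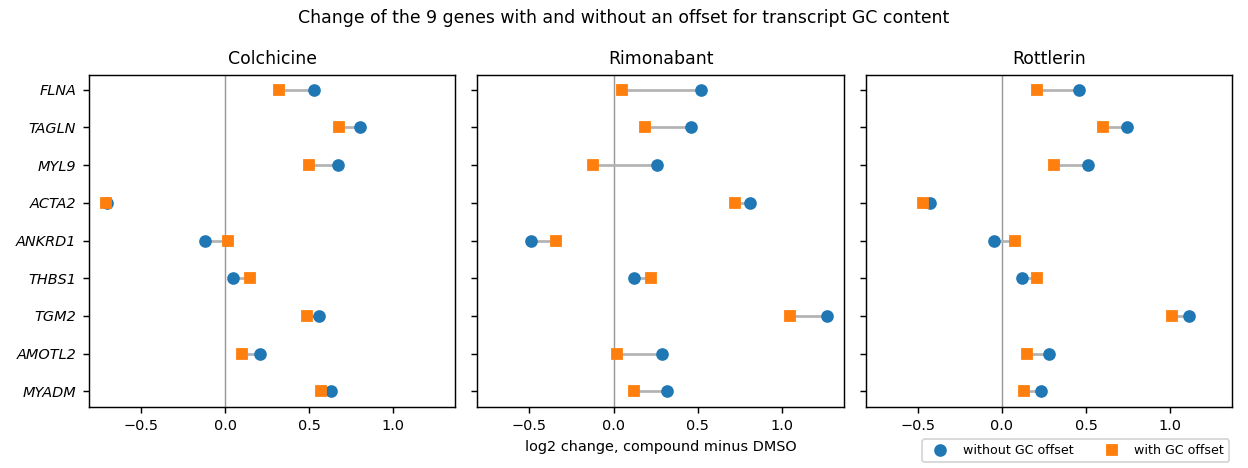
Log2 change (compound minus DMSO) of the 9 genes for 3 compounds, without (circles) and with (squares) an offset for transcript GC content in each library. With the offset, FLNA moves to 0.05 with rimonabant and MYADM stays at 0.57 with colchicine.

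Base composition moved with some of these differences. The transcripts of FLNA (62.25% GC), MYL9 (60.51%) and TAGLN (57.22%) were the richest in GC of the 9, and those of THBS1 (45.63%) and ANKRD1 (43.25%) the poorest. With a smooth offset for GC content fitted in each library, the FLNA difference with rimonabant was 0.05 (edgeR adjusted p = 0.936) and that of MYADM was 0.12 (0.724). With colchicine the offset left FLNA at 0.32 (adjusted p = 0.230) and MYADM at 0.57 (0.0508). TGM2 with rimonabant was at 1.05 (adjusted p = 0.137). The median of the 9 genes with the offset was 0.32 with colchicine, 0.12 with rimonabant, 0.21 with rottlerin and −0.01 with vardenafil. The offset left 0 of the 9 genes past the threshold in any comparison, and over all tested genes 1 with colchicine and 0 with rimonabant. At an unadjusted p under 0.05 with the offset, 4 of the 9 genes passed with colchicine (14.3% of tested genes) and 1 with rimonabant (9.24%). The count with rimonabant alone is near the share of all genes. Across the 16 libraries, TGM2 tracked the GC measure with a Pearson r of 0.84 (Spearman correlation 0.91) and FLNA with 0.72. ANKRD1 had −0.73, which was −0.44 without Rimonabant 2 and DMSO 2. The r was lower for MYADM (0.44), AMOTL2 (0.36), TAGLN (0.32), MYL9 (0.15), THBS1 (0.05) and ACTA2 (0.03), though MYL9 and TAGLN are rich in GC and THBS1 is poor in it. These correlations are descriptions over libraries that share groups and normalisation.

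The wider actin programme was followed in 25 further SRF and actin cytoskeleton genes, all of them tested. With rimonabant 8 rose, where 5.03% of tested genes did, and 0 fell, where 2.77% did. The 8 included PDLIM7 (0.74, SE 0.11), a scaffold of actin filaments, the focal adhesion protein ZYX (0.51, SE 0.09), the crosslinker ACTN1 (0.53, SE 0.10) and TLN1 (0.39, SE 0.08), which links integrins to actin. With each of the other 6 compounds 0 of the 25 passed by edgeR. Differences were above 0 for 23 of 25 with colchicine (median 0.32), 20 with rimonabant (0.31), 23 with rottlerin (0.28), 24 with Ly-294002 (0.21), 20 with moxifloxacin (0.18), 23 with epirizole (0.15) and 15 with vardenafil (0.07). Over all tested genes, 48.8% to 50.4% were above 0. At an unadjusted p under 0.05 the list had 14 genes with colchicine (17.5% of tested genes), 14 with rimonabant (24.8%) and 13 with rottlerin (14.8%). It had 9 with Ly-294002 (4.69%), 7 with moxifloxacin (11.9%), 5 with epirizole (5.26%) and 1 with vardenafil (5.22%). DESeq2 called 10 of the 25 with colchicine (3.78% of tested genes) and 6 with rottlerin (2.77%). The 8 rises with rimonabant numbered 0 with the GC offset and 0 without DMSO 1, without DMSO 2 or without Rimonabant 2.

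The YAP and TEAD signature had 22 genes, ANKRD1 and AMOTL2 among them. ARHGEF17, a guanine nucleotide exchange factor, was the 1 gene of the list that rose with rimonabant (0.48, SE 0.12), a share near the 5.03% of all tested genes. None of the 22 passed in the other 6 comparisons. At an unadjusted p under 0.05 the list had 5 genes with colchicine (17.5% of tested genes), 2 with rimonabant (24.8%) and 6 with rottlerin (14.8%). It had 2 with Ly-294002 (4.69%), 3 with moxifloxacin (11.9%), 0 with epirizole (5.26%) and 3 with vardenafil (5.22%). The median difference of the list lay between −0.09 (moxifloxacin) and 0.02 (Ly-294002), close to that of all genes. The matricellular genes CCN1 and CCN2, classic YAP targets named here after their values were seen, had differences below 0 in all 7 comparisons, from −0.29 to −0.18 for CCN1 and from −0.45 to −0.05 for CCN2, and neither passed. Of 21 Hippo pathway genes, TEAD2 (0.34, SE 0.09) and the upstream regulator NF2 (0.50, SE 0.10) rose and LATS1 (−0.34, SE 0.10) fell with rimonabant, and 0 passed with the other 6. With rimonabant 5.03% of tested genes rose and 2.77% fell. The median difference of the 21 with rimonabant was −0.11, with 10 above 0. At an unadjusted p under 0.05 by edgeR 9 of the 21 passed, where 24.8% of tested genes did. Of 12 TGF-beta response genes 2 rose with rimonabant, the matrix protein LTBP2 (1.33, SE 0.34) among them, and 0 passed with the other 6. The median difference of the 12 with rimonabant was −0.07, with 5 above 0. At an unadjusted p under 0.05 by edgeR 3 of the 12 passed with rimonabant (24.8% of tested genes). With the GC offset, and likewise without DMSO 1, DMSO 2 or Rimonabant 2, each of these 3 lists had 0 calls with rimonabant.

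**Figure D4:**
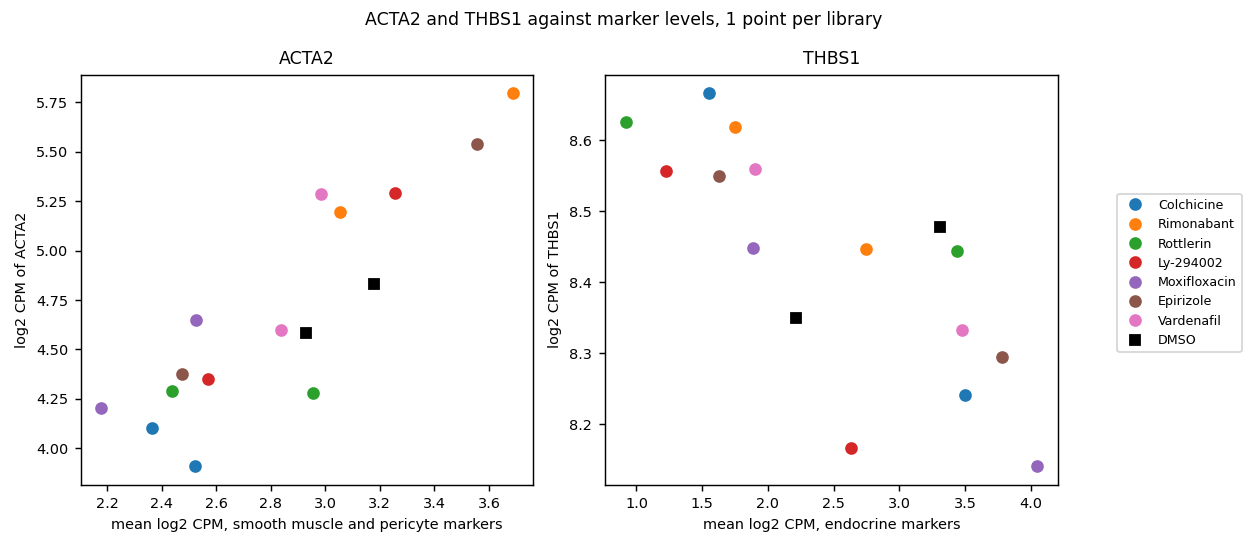
ACTA2 against the mean log2 CPM of 8 smooth muscle and pericyte markers (left) and THBS1 against that of 11 endocrine markers (right), 1 point per library. ACTA2 is high where the smooth muscle markers are high (r = 0.88), and THBS1 is low where the endocrine markers are high (r = −0.77).

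Markers of the cell types that could carry these transcripts also varied. All 13 mesenchyme markers were below 0 with colchicine (median log2 difference −0.88), with moxifloxacin (−0.89), with rottlerin (−0.70) and with vardenafil (−0.55), and none passed by edgeR, with 8 (17.5% of tested genes), 7 (11.9%), 5 (14.8%) and 3 (5.22%) at an unadjusted p under 0.05. The most abundant were the collagens COL3A1 (median 850 CPM) and COL1A2 (404 CPM). Summed, the 13 stood between 1440 and 1670 CPM in the Colchicine libraries, between 2260 and 2360 CPM with rimonabant, and between 2290 and 2420 CPM with DMSO. With colchicine 7 of the 9 genes had differences above 0, FLNA, TAGLN, MYL9 and MYADM among them. ACTA2 (−0.70) and ANKRD1 (−0.12) lay below 0, as the mesenchyme markers did. The part of mesenchyme cells in these differences was not tested. Of the 8 smooth muscle and pericyte markers 1, NOTCH3, rose with rimonabant (0.55, SE 0.16), where 5.03% of tested genes did. With the GC offset 0 of all tested genes passed with rimonabant. The 8 markers summed to between 434 and 560 CPM with rimonabant, 362 and 404 CPM with colchicine, and 348 and 352 CPM with DMSO. Their sum and their typical member ran in opposite directions with colchicine, where the median log2 difference of the 8 was −0.51 and 3 of 8 were above 0. The mean log2 CPM of the 8 lay between 3.05 and 3.69 with rimonabant, 2.37 and 2.52 with colchicine, and 2.93 and 3.18 with DMSO. The defining smooth muscle genes MYH11 and DES were near 0, with medians of 0.379 and 0.852 CPM. ACTA2 tracked the mean of this list over the 16 libraries (Pearson r = 0.88, Spearman correlation 0.86, and r = 0.84 without Rimonabant 1 and Moxifloxacin 2). The part of these cells in the ACTA2 difference was not tested.

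Epithelium markers summed to between 3560 and 3660 CPM with colchicine, 3160 and 3750 CPM with rimonabant, and to 2900 CPM in each DMSO library. Of the 7 markers 1 rose with colchicine, where 0.126% of tested genes did, and 3 with rimonabant, where 5.03% did. Differences were above 0 for only 5 of the 7 with rimonabant (median 0.32) and for 6 with colchicine (median 0.38). At an unadjusted p under 0.05 by edgeR, in either direction, 6 passed with rimonabant (24.8% of tested genes) and 5 with colchicine (17.5%). KRT18 rose with colchicine (0.53, SE 0.09), and CLDN7 (0.41, SE 0.08), CLDN4 (0.69, SE 0.17) and KRT19 (0.37, SE 0.10) rose with rimonabant. With the GC offset 0 of all tested genes passed with rimonabant, these 3 included. Over the 16 libraries FLNA tracked the mean of these 7 markers with an r of 0.72 and TGM2 with 0.75. Without Colchicine 1 and Rimonabant 2 these were 0.62 and 0.77. The rest of the 9 genes ran from −0.41 (ACTA2) to 0.60 (MYADM). FLNA and TGM2 also tracked the GC measure (r of 0.72 and 0.84). Of the endocrine markers 11 of 12 were tested, with CHGA (median 95.5 CPM) and SCG2 (18.8 CPM) the most abundant. They stood at 74 and 280 CPM in sum in the Colchicine libraries, 103 and 234 CPM with rimonabant, and 140 and 268 CPM with DMSO. THBS1 ran against them (Pearson r = −0.77, Spearman correlation −0.84, and r = −0.68 without Moxifloxacin 2 and Rottlerin 2). With the endocrine level as a covariate, 3 of the 9 genes passed with colchicine (6.02% of tested genes), 3 with rimonabant (15.1%) and 2 with rottlerin (3.95%). Of the endocrine, endothelium and heart muscle lists, 0 genes passed by edgeR in any comparison. Endothelium markers were at most 8.36 CPM in sum, led by KDR (median 1.35 CPM) and TEK (1.13 CPM). Heart muscle markers were at most 38.4 CPM, led by ACTC1 (12 CPM) and TNNT2 (7.46 CPM), with NPPA at 0 in all libraries.

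**Figure D5:**
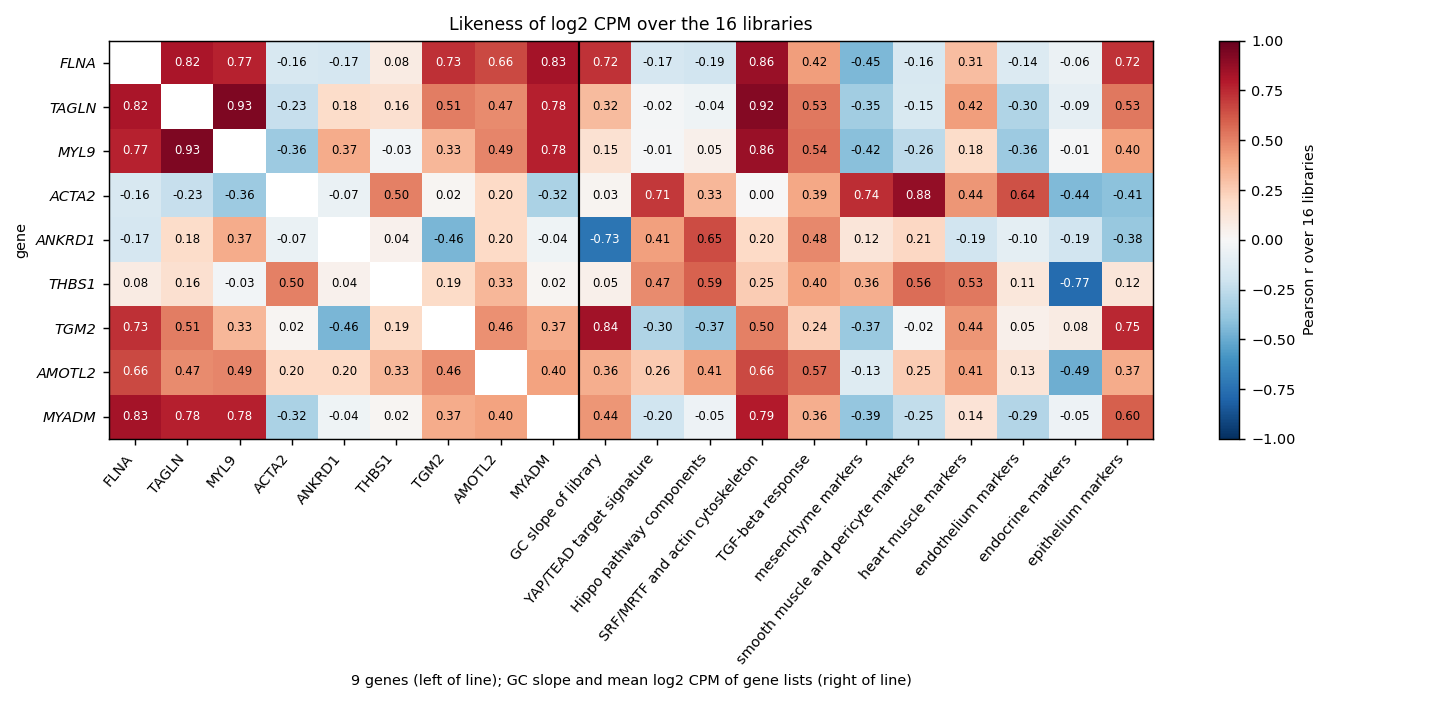
Pearson r of log2 CPM over the 16 libraries, among the 9 genes (left of the line) and between each gene and the GC measure or the mean of the gene lists shown (right of the line). FLNA, TAGLN, MYL9 and MYADM form a block with r from 0.77 to 0.93, and ACTA2, ANKRD1 and THBS1 lie outside it.

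The 9 genes did not move as 1 unit. Of their 36 pairs, 7 had a Pearson r over 0.7 across the 16 libraries and 9 an r under 0, from −0.46 (ANKRD1 and TGM2) to 0.93 (TAGLN and MYL9). TAGLN and MYL9 kept an r of 0.86 without DMSO 2 and Vardenafil 2. FLNA had an r of 0.83 with MYADM, 0.82 with TAGLN and 0.77 with MYL9, which were 0.73, 0.63 and 0.50 without DMSO 2 and Colchicine 1. ACTA2 had an r under 0 with FLNA, TAGLN, MYL9, ANKRD1 and MYADM. Of deviations from the group means, its r was above 0 with TAGLN (0.46), MYL9 (0.14) and ANKRD1 (0.41), and below 0 with FLNA (−0.13) and MYADM (−0.08). TAGLN followed the mean of the 25 SRF and actin genes with an r of 0.92, FLNA and MYL9 with 0.86, MYADM with 0.79 and ACTA2 with 0.00. That list shares ACTG2 and CNN1 with the smooth muscle and pericyte markers. Without DMSO 2 and Vardenafil 2 the r was 0.81 for TAGLN, 0.72 for FLNA, 0.75 for MYL9, 0.68 for MYADM and −0.09 for ACTA2. ACTA2 instead had an r of 0.71 with the YAP and TEAD signature and 0.74 with the mesenchyme markers.

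The 3 genes most like each of the 9, among 10380 genes, were found by the same r over 16 libraries. For FLNA they were CFL1 (0.963), MYH9 (0.963), the heavy chain of non-muscle myosin, and GOLGA3 (0.956). For TAGLN they were CORO1C (0.908), an actin-binding coronin, PACS1 (0.902) and CXCL16 (0.894). For MYL9 they were SPSB1 (0.959), the actin-bundling LIM protein gene CSRP1 (0.954) and MFGE8 (0.948). For ACTA2 they were CARMN (0.892), a long non-coding RNA of smooth muscle, CRB2 (0.859) and CCDC3 (0.856).

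The genes most like ANKRD1 were OGFRL1 (0.959), TMEM65 (0.958) and ATP11B (0.948), whose transcripts have 35.6%, 39.0% and 38.2% GC. THBS1 was most like BLCAP (0.888), the histone gene H4C3 (0.852) and EI24 (0.845). TGM2 was most like MZT2B (0.898), PTCD1 (0.895) and GPN2 (0.895), and AMOTL2 most like EPHB6 (0.900), DPP7 (0.871) and the calponin gene CNN2 (0.825). MYADM was most like TOR1A (0.879), NUTF2 (0.878) and the clathrin adaptor gene AP2M1 (0.877).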

How the data were processed

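Total RNA of 16 cultures was measured, and groups were taken from each sample's library name and treatment label. The authors deposited raw read counts per gene, with no normalisation. Per the labels' protocols, ribosomal RNA was removed and reads were trimmed (Trimmomatic 0.38), aligned (STAR 2.7.1a) and counted with featureCounts 1.6.0 or HTSeq; the submitters' processing notes name GRCh38. Strand, annotation release and the handling of multiply mapped reads are not given in the sources used here.

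Counts were fitted with edgeR 4.0.16 in R 4.3.3. Genes kept by filterByExpr (24515, with 99.92% of reads) were scaled by TMM, all 16 libraries entered 1 robust quasi-likelihood fit of 8 groups, and each compound was tested against DMSO, two-sided, with Benjamini-Hochberg adjustment over all tested genes and a threshold of 0.05. Log2 levels used a prior count of 1. Printed CPM used TMM scaling for the 9 genes, and library totals alone for marker levels and marker sums. A floor of 3 reads was 0.0977 to 0.129 CPM per library, for counting error only; the lowest count of any of the 9 genes was 331 reads. The 2 libraries of a group differed by more than sampling noise in every group (chi-square per degree of freedom from 8.225 to 28.05). GC content was that of the longest GENCODE 29 transcript, for 95.3% of tested genes, and entered as a natural spline with 5 degrees of freedom per library; the GC measure of a library compares the upper and lower 20% of genes by GC. Alternatives were DESeq2 1.42.0 size factors and its Wald test, no filter on low counts, the replicate number as a block, the GC offset, the mean log2 CPM of endocrine markers as a covariate, only the 2 groups compared, and leaving out each library.

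Named genes were the 9, the 3 genes most like each (mean of at least 10 CPM), and from each of 11 lists up to 4 genes past the threshold per comparison by smallest p, or its 2 most abundant where none passed. The 9 genes and the lists were chosen with earlier results of these data known. Some genes that the lists hold are not reported here. The code was tested on simulated counts.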

Additional observations from a re-analysis of the deposited data

How the results depend on the processing

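The number of the 9 genes past the threshold, 2 with colchicine, 3 with rimonabant and 0 elsewhere, was unchanged with DESeq2 size factors. With the DESeq2 test it was 4 with colchicine (3.78% of all genes in the same fit), 3 with rimonabant (12%), 3 with rottlerin (2.77%) and 4 in the joint test (4.96%). With no filter on low counts it was 6 with colchicine (3.51%), 5 with rimonabant (6.01%), 4 with rottlerin (2.41%), 3 with Ly-294002 (0.378%), 3 with moxifloxacin (1.66%), 7 in the joint test (6.76%) and 4 for rimonabant against colchicine (1.3%). With only the 2 groups compared in the fit it was 1 with colchicine (0.62%) and 1 with rimonabant (0.19%), and with the GC offset it was 0 in every comparison. With the endocrine covariate it was 3 with colchicine (6.02%), 3 with rimonabant (15.1%), 2 with rottlerin (3.95%) and 3 in the joint test (3.18%). The cause of these shifts was not tested.

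The labels do not say whether the replicate numbers pair the samples. The deviations of same-numbered libraries correlated between −0.26 and 0.21 over 28 pairs of groups, with 5 over 0.1. Such correlations cannot settle whether they were paired, since the 2 libraries of a group also differ in endocrine content. With the replicate number as a block, 1 gene passed with colchicine (0.0204% of tested genes) and 2 with rimonabant (4.45%).

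Leaving out any 1 library gave 0 genes with colchicine, 0 to 3 with rimonabant (3 without Rimonabant 1, otherwise 0), 0 with each of the other 5 compounds and for rimonabant against colchicine, and 0 to 2 in the joint test. An arm then had 1 library, assumed to vary like the other groups. FLNA lay between 0.43 and 0.66 with colchicine and between 0.41 and 0.64 with rimonabant, MYADM between 0.57 and 0.73 and between 0.25 and 0.40, and TGM2 with rimonabant between 1.09 and 1.48, so the called changes kept their direction.

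The GC offset reversed 7 of the 63 log2 changes, none of them called. They were FLNA (−0.01), MYL9 (−0.08) and MYADM (−0.01) with vardenafil, MYL9 with rimonabant (−0.12), and ANKRD1 with colchicine (0.02), rottlerin (0.08) and moxifloxacin (0). The endocrine covariate reversed ACTA2 with Ly-294002 (−0.08) and THBS1 with epirizole (−0.01). Leaving out 1 library reversed uncalled changes 24 times. With vardenafil the ranges were −0.34 to 0.38 for TAGLN, −0.22 to 0.39 for MYL9, −0.11 to 0.58 for ACTA2, −0.08 to 0.15 for THBS1 and −0.02 to 0.13 for MYADM. With epirizole they were −0.02 to 0.69 for TAGLN, −0.33 to 0.84 for ACTA2, −0.29 to 0.15 for ANKRD1 and −0.11 to 0.14 for THBS1. With colchicine they were −0.43 to 0.16 for ANKRD1 and −0.16 to 0.26 for THBS1, and with rimonabant −0.02 to 0.60 for MYL9. With Ly-294002 they were −0.36 to 0.59 for ACTA2 and −0.25 to 0.15 for THBS1, with moxifloxacin −0.22 to 0.03 for ANKRD1 and −0.27 to 0.04 for THBS1, and with rottlerin −0.40 to 0.25 for ANKRD1.

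With 2 libraries a group the spread rests on all 8 groups together. Over all tested genes the calls with rimonabant numbered 1913, and from 0 to 3833 with 1 library left out. Those with colchicine numbered 48, and from 1 to 2 with 1 library left out. With the DESeq2 test, no filter, the replicate block, the GC offset, the endocrine covariate and only the 2 groups, the counts were 926, 1568, 5, 1, 1475 and 134 with colchicine and 2936, 2686, 1090, 0, 3710 and 42 with rimonabant, and with DESeq2 size factors 150 with colchicine. In the same order, and chosen after seeing the data, the SRF and actin list with rimonabant (8 calls) had 11, 11, 5, 0, 12 and 0. Read depth was not limiting for the 9 genes.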
